A study of Homo sapiens with 27 samples.

Results

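ARCaPM-DR cells carrying the hairpin shGATA2b were compared with ARCaPM-DR cells carrying the hairpin shGATA2a. Both short hairpin RNAs are directed at the same gene, GATA2. The comparison rests on 6 of the 27 libraries of the series, chosen by their titles: replicates 1, 2 and 3 of each hairpin, set against each other within a replicate number. The 3 ARCaPM-DR libraries with the control hairpin are given for reference. ARCaPM is a mesenchymal-type derivative of the human ARCaP prostate cancer line, and the labels describe it here as chemotherapy-resistant and castration-resistant. The control cells expressed a hairpin that targets no chosen gene, so all 9 libraries come from cells that express a hairpin. The series holds the same 3 groups in 2 further lines, DU145-DR and 22Rv1-DR, with 3 libraries per group.

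A short hairpin RNA is cut into a small RNA that guides the silencing machinery to a matching messenger RNA. GATA2 is a zinc-finger transcription factor that binds GATA motifs in the control regions of its target genes and is expressed in prostate cancer cells. Hairpins against the same gene share that target but have different sequences, so each can also act on other transcripts with partial matches to its own guide. The hairpin sequences were not used here. In bulk RNA, fewer cells of a type and less RNA per cell cannot be told apart.

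The 6 hairpin libraries held 3.44 to 12.87 M recovered reads, and replicate 3 of shGATA2a was the shallowest, so that 1 read there was worth 3.89 units. Values are read counts scaled by the authors to a common size, called normalised read counts below. Levels are therefore not divided by gene length. Summed mesenchymal markers (VIM, ZEB1, SPARC and 5 others) stood at 35003 to 58535 in the 9 libraries. VIM alone stood at 32254 to 55226, while ZEB2, SNAI2, TWIST1 and CDH2 were at 12.5 or less. Summed epithelial markers (CDH1, KRT8, KRT18 and 4 others) stood at 5838 to 16364. Most of that sum was KRT8 and KRT18, and CDH1 was at 26.4 to 62.2. The prostate luminal markers KLK2, KLK3 and TMPRSS2 summed to 8.96 or less, with KLK3 at 0 in all 9, while 5 endothelial markers (PECAM1, CDH5 and 3 others) and 5 blood markers (PTPRC, CD3E and 3 others) stayed at or below a summed 17.5 and 12.9. CD68, a macrophage gene that many other cells express, was higher than these, at 1034 ± 267 in the controls, 446 ± 222 with shGATA2a and 229 ± 84.2 with shGATA2b (SD, n = 3). Of the fibroblast markers, COL1A1 and COL3A1 were expressed and made up nearly all of a summed 2368 to 14933. COL1A2 stood at 2.63 to 16.6, and DCN and LUM at 4.98 or less.

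GATA2 itself was measured first. In replicates 1, 2 and 3 it stood at 173, 153 and 145 with the control hairpin, at 26.4, 30.9 and 46.6 with shGATA2a, and at 17.3, 20.1 and 21.7 with shGATA2b. All 6 hairpin libraries lay below all 3 controls, and the shGATA2b libraries lay below the shGATA2a libraries without overlap. The log2 difference from the control was -2.19 for shGATA2a and -2.94 for shGATA2b. These 2 comparisons share the 3 controls. Between the hairpins GATA2 was lower with shGATA2b by a log2 difference of -0.75 (SE 0.24, limma adjusted p = 0.0456, lower in 3 of 3 pairs). That call was lost in 23 of 28 alternative settings, with adjusted p-values from 0.0163 to 0.334. With edgeR it was 0.160 and without the replicate block 0.257.

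Cells with the 2 hairpins differed in many transcripts. Of 13079 genes tested, 1629 (12.5%) differed at an adjusted p under 0.05, 618 (4.73%) higher and 1011 (7.73%) lower with shGATA2b. The difference was at least 2-fold for 142 of them, 45 higher and 97 lower. HMOX1, which encodes the heme-degrading enzyme heme oxygenase 1, led the higher genes, while GZMB, SERPINA6, STT3B and the NF-kB target BIRC3 were among the strongest lower genes. Among gene lists, 11 of 27 NRF2 antioxidant genes were higher with shGATA2b and 0 lower, 35 of 56 mitotic genes were lower and 0 higher, and 10 of 25 NF-kB genes were lower and 1 higher.

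The test was limma on log2(normalised read count + 1) with replicate number as a block, which understates changes of low genes. Without that block 105 genes passed, all of them among the 1629, and leaving out all libraries numbered 1 left 360. Leaving out shGATA2a replicate 1, shGATA2b replicate 1, shGATA2b replicate 2, shGATA2a replicate 3 or shGATA2b replicate 3 gave 647, 755, 1004, 1054 and 614. The 3 values per hairpin did not overlap for 16.3% of all genes tested (7.39% higher and 8.95% lower), and for 972 of the 1629. The called genes also differed in base composition, with a median transcript GC content of 54.9% for the higher, 42.6% for the lower and 49.0% for all genes tested. The rank correlation across genes of the hairpin difference with GC was 0.405, -0.183 and 0.330 in pairs 1, 2 and 3. With the GC dependence removed, 2451 genes passed, 1133 higher and 1318 lower, and 1462 of them were among the 1629. The part of GC content in any call was not tested further.

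**Figure D1:**
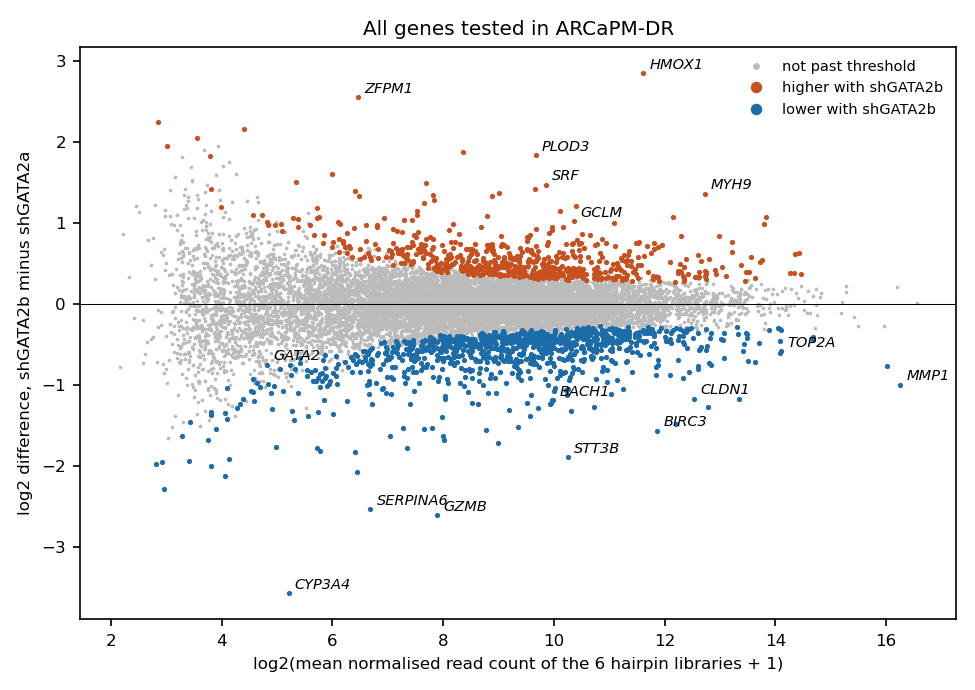
Log2 difference between the hairpins (shGATA2b minus shGATA2a, y axis) against the log2 mean normalised read count of the 6 hairpin libraries (x axis), one point per gene tested. Orange points (618) were higher and blue points (1011) lower with shGATA2b at an adjusted p under 0.05, and HMOX1 stands apart among well-expressed genes at 2.85.

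HMOX1 showed the largest difference of the genes higher with shGATA2b. Its normalised read count was 568, 871 and 882 with shGATA2a and 5578, 5262 and 5610 with shGATA2b, against 699, 1080 and 1657 in the controls. The shGATA2b libraries lay above every other library, and those with shGATA2a overlapped the controls. The log2 difference between hairpins was 2.85 (SE 0.16, adjusted p = 7.2e-09). Against the shared controls, shGATA2a differed by -0.51 and shGATA2b by 2.35. BACH1, a transcriptional repressor known to silence HMOX1 and other antioxidant genes when heme is low, was lower. It stood at 1385, 1432 and 1411 with shGATA2a and at 601, 749.6 and 523 with shGATA2b. Its controls, at 1018, 1230 and 881, lay between the hairpin groups, and no library of one hairpin overlapped the other. The log2 difference was -1.19 (SE 0.11, adjusted p = 1.6e-06). HMOX1 and BACH1 both kept their calls without the replicate block.

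**Figure D2:**
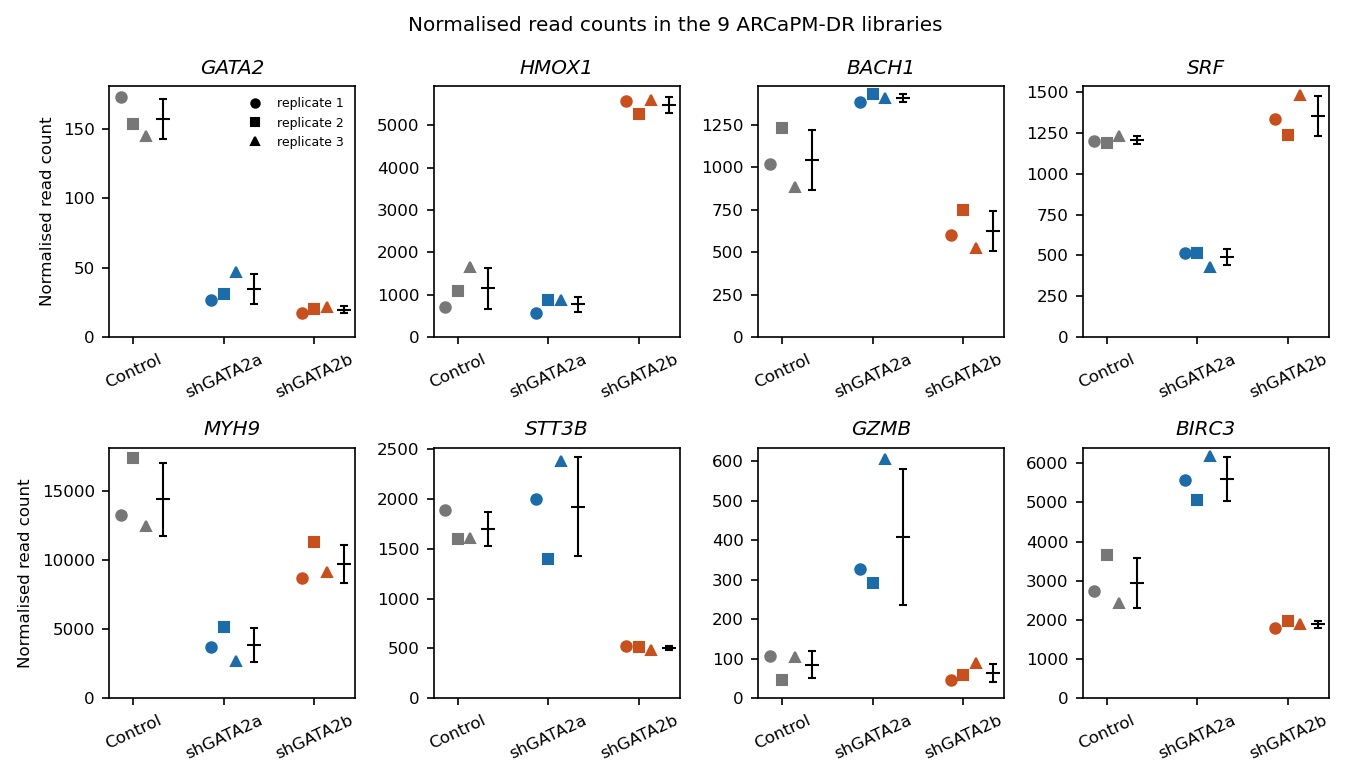
Normalised read counts (y axes, linear from 0) of 8 genes in the 9 ARCaPM-DR libraries, with a symbol per replicate number and bars for the mean ± SD of 3 libraries. HMOX1 lay at 5262 or above with shGATA2b and at or below 1657 elsewhere, while BACH1, STT3B and BIRC3 were lowest with shGATA2b.

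HMOX1 belongs to a set of genes bound by NRF2, the transcription factor that KEAP1 holds in check until oxidants or electrophiles release it. Among 27 tested members of an NRF2 list, 11 were higher and 0 lower with shGATA2b, against 4.73% higher over all genes. The median log2 difference was 0.22, against -0.0038 over all genes. Compared with the shared controls, 12 members were higher and 4 lower with shGATA2a (median 0.23), against 20.3% and 19.7% of all genes. With shGATA2b 16 were higher and 2 lower (median 0.63), against 19.7% and 20.7%. The cystine and glutathione branch included SLC7A11, the cystine transporter subunit, at 784 ± 183 with shGATA2a and 1511 ± 310.0 with shGATA2b (SD, n = 3), a log2 difference of 0.95. GCLM, the modifier subunit of the enzyme that begins glutathione synthesis, was at 942, 585 and 1108 with shGATA2a and at 1735, 1327 and 2242 with shGATA2b. It did not overlap between the hairpins and differed by 1.03 (SE 0.11, adjusted p = 1.1e-05). Its partner GCLC, the catalytic subunit, had a value of 0.27 that did not pass (adjusted p = 0.0701).

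Enzymes of the pentose phosphate pathway, which supplies NADPH and ribose, passed in the same direction. TKT, a transketolase, stood at 10333, 10873 and 7583 with shGATA2a and at 20742, 18181 and 17593 with shGATA2b. Its controls, at 11166, 10049 and 12222, overlapped the shGATA2a libraries, and the hairpin groups did not overlap. The log2 difference was 0.99 (SE 0.12, adjusted p = 2.7e-05). TALDO1, a transaldolase, differed by 0.53 and PGD, an NADPH-yielding enzyme, by 0.38. ME1, the cytosolic malic enzyme, differed by 0.54. FTH1, the ferritin heavy chain, was higher by 0.63 and NQO1, a quinone reductase, by 0.37. FTH1 has many near-identical pseudogenes, among which the authors' counting may have split reads.

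The regulators and several other members did not pass. NFE2L2, which encodes NRF2, had a log2 difference of 0.14 (adjusted p = 0.395), and KEAP1 one of 0.22 (0.196). TXNRD1, thioredoxin reductase, was 37491 ± 1468 with shGATA2a and 38368 ± 3220 with shGATA2b, a difference of 0.03 (0.894). Without the replicate block the count of higher NRF2 list members fell to 2, HMOX1 and TKT, and without shGATA2a replicate 3 it was 10.

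The antioxidant response element, through which NRF2 and BACH1 are known to bind DNA, has the core TGACNNNGC. These stretches are shown because the members that passed and those that did not both hold it. RefSeq promoter sequence (build GRCh38.p14) was read in the 250 bases before each start, on both strands. A match lay before 3830 of 35116 starts of all genes (10.9%). Counted by gene, 3609 of 27305 held a match. Of the 27 NRF2 list members 20 had a promoter entry, and 5 held a match. These 20 genes had 26 starts, 6 of them with a match (23.1%). Matching genes were 3 of 7 with an entry that passed (GCLM, ME1 and PGD) and 2 of 13 that did not (KEAP1 and TXNRD1). A single match is shown per gene. Capitals mark the core, written 5′ to 3′ on the strand of the gene, so a core on the other strand appears as its reverse complement.
GCLM (passed, chr1:93909446-93909474, minus strand): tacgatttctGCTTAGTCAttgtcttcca
ME1 (passed, chr6:83431170-83431198, minus strand): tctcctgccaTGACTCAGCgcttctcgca
PGD (passed, chr1:10398853-10398881, plus strand): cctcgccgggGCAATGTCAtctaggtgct
KEAP1 (not passed, chr19:10502784-10502812, minus strand): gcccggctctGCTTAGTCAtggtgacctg
TXNRD1 (not passed, chr12:104215670-104215698, plus strand): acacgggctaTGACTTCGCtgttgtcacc
GCLM and KEAP1 carry the same core letters, with log2 differences of 1.03 and 0.22. A match is a description of the letters and not a bound site.

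**Figure D3:**
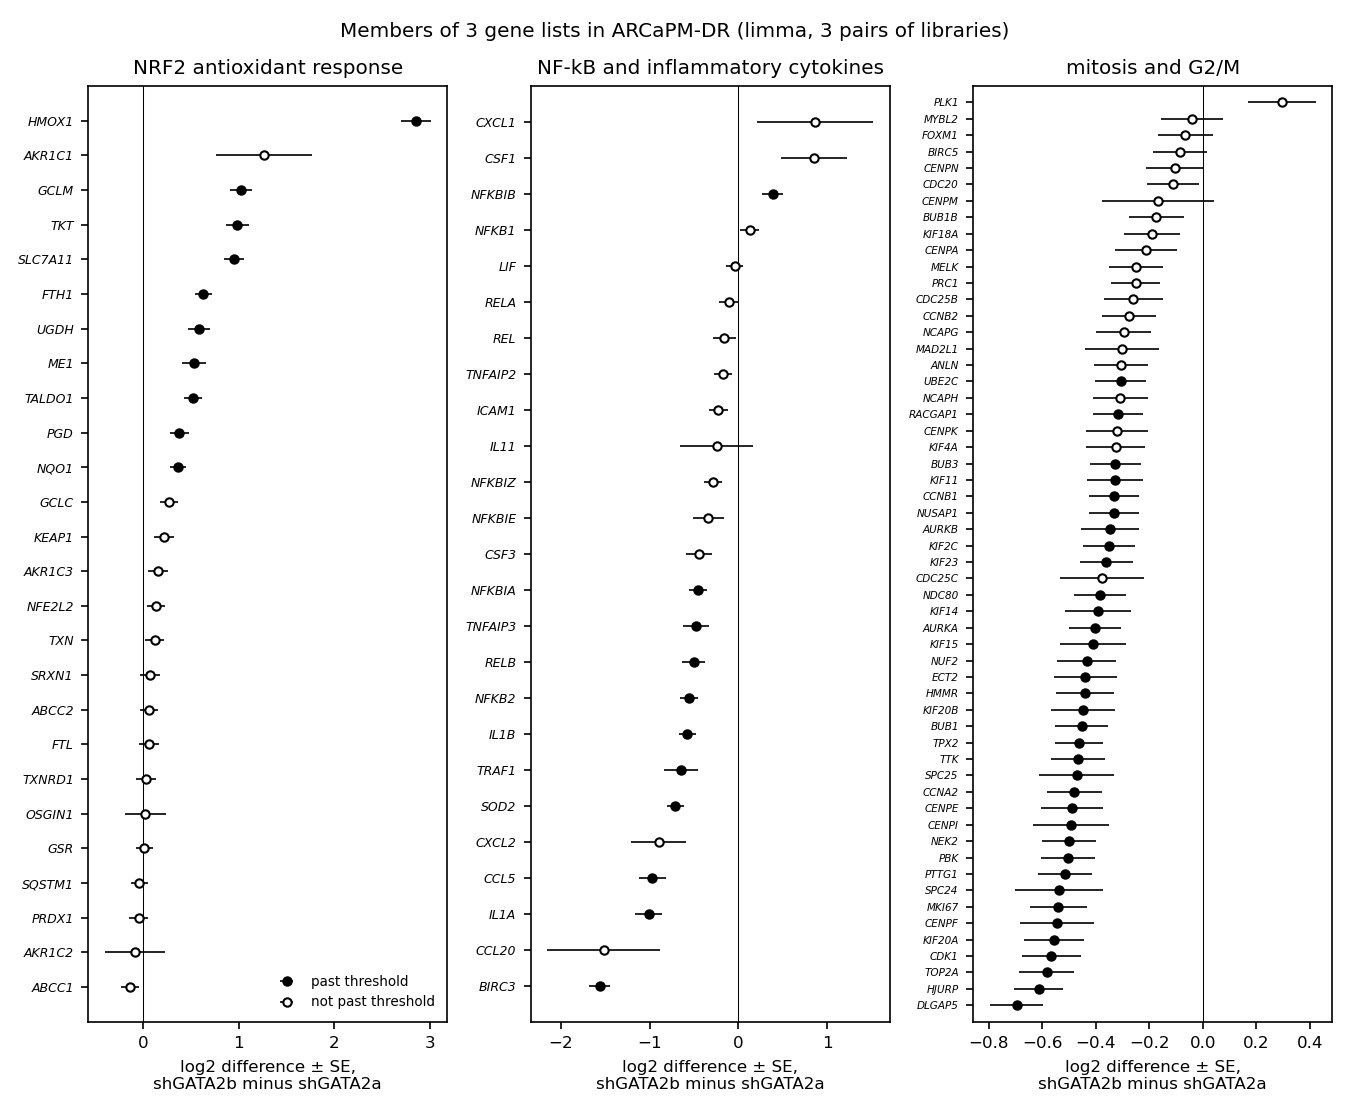
Log2 difference between the hairpins (shGATA2b minus shGATA2a, x axes) with its SE for 26 of 27 tested NRF2 list members and all tested members of the NF-kB and mitosis lists. Filled circles passed the threshold: 10 of 26 NRF2 members to the right, 10 of 25 NF-kB members to the left and 1 to the right, and 35 of 56 mitosis members to the left.

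Genes of amino acid supply were among those higher with shGATA2b. By the unfolded protein and integrated stress responses, cells adapt to misfolded protein or amino acid shortage. In a list of these responses, 6 of 37 members were higher and 0 lower, with a median of 0.23. Over all genes 4.73% were higher and 7.73% lower. PSAT1, an enzyme of serine synthesis, stood at 2041, 1900 and 2627 with shGATA2a and at 3419, 3576 and 3994 with shGATA2b. Its groups did not overlap, and the log2 difference was 0.75 (SE 0.09, adjusted p = 4.1e-05). CHAC1, a glutathione-degrading enzyme, was higher by 1.08 and ASNS, asparagine synthetase, by 0.32. Of 20 aminoacyl-tRNA synthetases, which charge tRNAs, 5 were higher and 0 lower with a median of 0.21. YARS, for tyrosine, was at 1143, 1342 and 1267 with shGATA2a, below its controls of 1765, 1892 and 1950, and at 1844, 1924 and 1844 with shGATA2b. TARS and IARS, for threonine and isoleucine, differed by 0.49 and 0.46. Without the replicate block, PSAT1 alone of the stress list and YARS alone of the synthetases passed.

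Most tested mitotic genes were lower with shGATA2b. Of 56 tested members of a mitosis and G2/M list, 35 were lower and 0 higher, against 7.73% lower over all genes, and 55 of 56 had a value below 0. The list's median was -0.35, with medians of -0.40, -0.25 and -0.43 in pairs 1, 2 and 3. For 27 of the 56 the shGATA2b libraries lay wholly below those with shGATA2a, against 8.95% of all genes. The differences were modest in size: DLGAP5, a spindle protein, differed by -0.70 and HJURP, which loads the centromeric histone, by -0.61. TOP2A, the topoisomerase that untangles chromosomes, was at 22167, 16365 and 25461 with shGATA2a and at 13698, 12530 and 15963 with shGATA2b. Its controls, at 16478, 14830 and 16056, overlapped the range of shGATA2b. CDK1, the mitotic kinase, differed by -0.57 and MKI67, a proliferation marker, by -0.54.

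Against the shared controls, 16 mitosis members were higher and 9 lower with shGATA2a, against 20.3% and 19.7% of all genes. With shGATA2b 3 were higher and 27 lower, against 19.7% and 20.7%. FOXM1, a transcription factor of mitotic genes, differed by -0.07 between the hairpins (adjusted p = 0.744), with 1010 ± 212 and 989.5 ± 345. PLK1, a mitotic kinase, was the member with a value above 0, at 0.30 (0.143). The count of lower mitotic members is sensitive to the fit: without the replicate block 1 passed (HJURP), with no variance trend 7, and without the libraries numbered 1 it was 4. It was 17 without shGATA2a replicate 3, 32 with edgeR and 41 with the GC dependence removed.

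Of 54 tested members of a DNA replication and G1/S list, 5 were higher and 1 lower, and the median was 0.03. The share that passed was 11.1%, near the 12.5% of all genes. MCM5 and MCM2, subunits of the replicative helicase, were higher by 0.52 and 0.42, while E2F7, a repressor of E2F targets, had a log2 difference of -0.67. CDKN2C, an inhibitor of CDK4 and CDK6, was lower too, at 428, 438 and 393 with shGATA2a and 210.2, 209 and 216 with shGATA2b. Its controls, at 274, 249.7 and 299, lay between the groups without overlap, and the log2 difference was -0.98 (SE 0.12, adjusted p = 5.0e-05). None of the replication list passed without the replicate block (0 of 54), where CDKN2C kept its call.

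NF-kB is a family of transcription factors that switch on cytokine, survival and feedback genes. Among 25 tested members of an NF-kB list, 10 were lower and 1 higher, against 7.73% and 4.73% of all genes. The median of the list was -0.44. Compared with the shared controls, 5 members were higher and 10 lower with shGATA2a (median -0.24), against 20.3% and 19.7% of all genes. With shGATA2b 1 was higher and 17 were lower (median -0.61), against 19.7% and 20.7%. BIRC3, an inhibitor of apoptosis, stood at 5568, 5061 and 6180 with shGATA2a and at 1795, 1972 and 1907 with shGATA2b. The controls, at 2729, 3657 and 2437, lay between, and the log2 difference was -1.56 (SE 0.12, adjusted p = 3.4e-07). Among ligands, IL1A differed by -1.01, CCL5 by -0.97 and IL1B by -0.57. Among the subunits and inhibitors of the pathway, NFKB2 differed by -0.56, RELB by -0.50 and NFKBIA, the feedback inhibitor, by -0.46. SOD2, the mitochondrial superoxide dismutase, differed by -0.71. RELA and NFKB1, subunits of the classical dimer, had values of -0.10 and 0.13 that did not pass. NFKBIB, another inhibitor, was the member higher, by 0.39. BIRC3 and SOD2 were the 2 members that passed without the replicate block.

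Interferon genes were called lower more often than higher with shGATA2b. Of 47 tested members of a list for double-stranded RNA sensing and the interferon response, 10 were lower and 3 higher, with a median of -0.23. Over all genes 7.73% were lower and 4.73% higher, so the count of higher members was near that share. RSAD2, an antiviral enzyme, was at 278, 104 and 536 with shGATA2a and at 99.3, 43.9 and 141 with shGATA2b. The groups overlapped, since replicate 2 was low in both, but each pair had the lower value with shGATA2b, and the log2 difference was -1.54 (SE 0.16, adjusted p = 7.3e-06). IFI6 differed by -1.17, HERC5, the ligase that attaches ISG15, by -0.81 and OASL by -0.66. GBP1, a guanylate-binding protein, went the other way, at 161, 50.8 and 117 with shGATA2a and 384, 153 and 367 with shGATA2b. IRF1, a transcription factor that induces GBP1, was higher by 0.45 and TLR3 by 0.68. HERC5 was the member of the list that kept its call without the replicate block. The median of the list against the shared controls was 0.20 for shGATA2a and 0.12 for shGATA2b.

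Silencing components were also read, since hairpins work through them. Of 20 RNA interference genes, 3 were lower and 1 higher, against 7.73% and 4.73% of all genes. EIF2C4, which encodes Argonaute 4, was at 1032, 1033 and 1057 with shGATA2a and at 667, 679 and 727 with shGATA2b. Its controls, at 652, 696 and 647, lay near the shGATA2b libraries, and the log2 difference was -0.59 (SE 0.10, adjusted p = 6.1e-04). EIF2C2, the slicing Argonaute 2, differed by -0.39 and TNRC6B, its scaffold partner, by -0.48. MOV10, a helicase of the complex, was higher by 0.33. Without the replicate block EIF2C4 kept its call, while EIF2C2, TNRC6B and MOV10 did not (adjusted p = 0.336, 0.288 and 0.618).

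**Figure D4:**
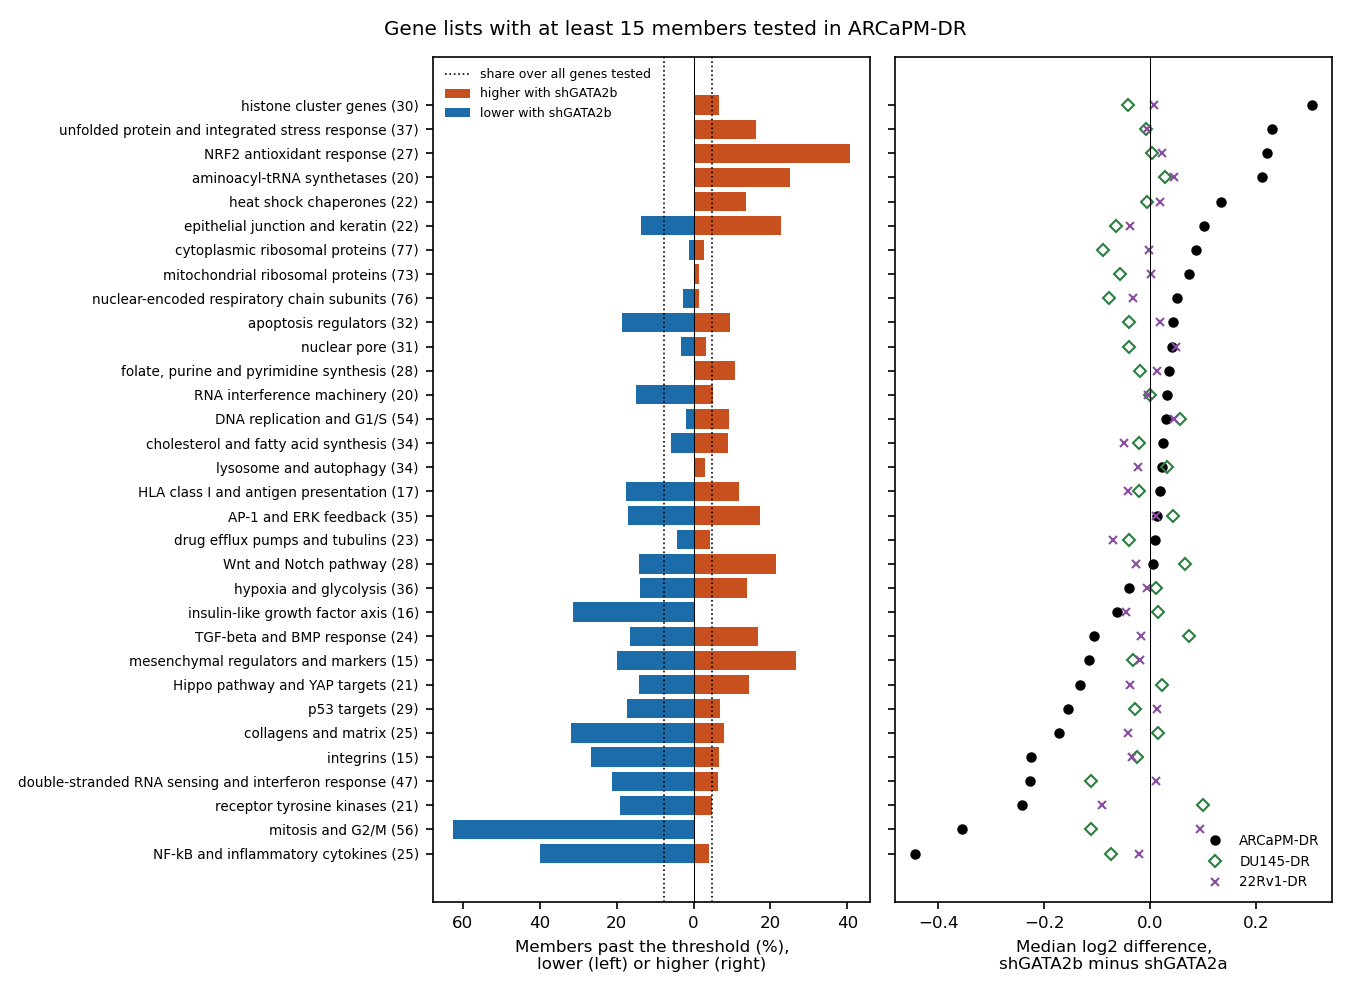
Left, percent of tested members past the threshold in each gene list with at least 15 members tested, lower (blue) or higher (orange) with shGATA2b, with dotted lines at the shares over all genes (7.73% and 4.73%). Right, the list's median log2 difference in 3 lines, with mitosis at -0.35 and NF-kB at -0.44 in ARCaPM-DR, and the other lines nearer 0 for these 2 lists.

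SRF and MYH9 stood among the 15 largest differences in the higher direction. SRF, the transcription factor that couples actin state to cytoskeletal genes, stood at 516, 517 and 431 with shGATA2a and at 1338, 1241 and 1487 with shGATA2b. The controls, at 1203, 1189 and 1236, lay just below the shGATA2b libraries, so the shGATA2a libraries were the ones apart. The log2 difference was 1.47 (SE 0.11, adjusted p = 2.6e-07). MYH9, the heavy chain of non-muscle myosin IIA, was at 3727, 5152 and 2728 with shGATA2a and at 8674, 11279 and 9138 with shGATA2b. Its controls, at 13275, 17377 and 12438, were above both, and the log2 difference was 1.36. TPM1, a tropomyosin of the mesenchymal list and not among those 15, was higher by 0.58 and had values of 0.34 and 0.92 against the control with shGATA2a and shGATA2b.

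A further run of genes had its outlying group in shGATA2a. PLOD3, a collagen lysyl hydroxylase, was at 342, 543 and 229 with shGATA2a and at 1265, 1439 and 1074 with shGATA2b, with controls at 1085, 1223 and 1027. MEN1, the scaffold menin, was at 239, 308 and 253 against 699, 792 and 547, with controls at 797, 726 and 761. Their log2 differences were 1.84 and 1.34. ZFPM1, which encodes FOG1, a cofactor that binds GATA factors, was at 36.5, 68.7 and 3.89 with shGATA2a, the last being 1 read. With shGATA2b it was at 157, 113 and 142, and the log2 difference was 2.55 (SE 0.51, adjusted p = 0.00292). Without shGATA2a replicate 3 the adjusted p was 3.9e-05, and without the block 0.195.

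In the other direction, GZMB, the protease granzyme B best known from cytotoxic lymphocytes, had its 3 highest values with shGATA2a. It stood at 327, 291 and 606 with shGATA2a, 46.2, 58.9 and 90.1 with shGATA2b, and 107, 46.4 and 104 in the controls. The log2 difference was -2.61 (SE 0.22, adjusted p = 7.4e-07). SERPINA6, the corticosteroid-binding globulin, was at 179.8, 149 and 194 with shGATA2a and at 30.0, 28.8 and 29 with shGATA2b, with controls at 48.9, 31.5 and 34.6. SLC40A1, the iron exporter ferroportin, was at 391 ± 107 with shGATA2a, 126 ± 55.2 with shGATA2b and 149 ± 44.6 in the controls. The same 5 blood markers summed to 12.9 or less in all 9 libraries.

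Other lower genes had their outlying values with shGATA2b. STT3B, a catalytic subunit of the oligosaccharyltransferase, was at 1998, 1392 and 2375 with shGATA2a and at 522, 511 and 486 with shGATA2b. Its controls, at 1892, 1595 and 1605, overlapped the shGATA2a libraries, and the log2 difference was -1.89 (SE 0.13, adjusted p = 1.7e-07). TBC1D9, a Rab GTPase-activating protein, was at 777, 648 and 906 against 213, 273 and 221, with controls at 777, 679 and 734. C3, the central complement component, was at 202, 467 and 85.5 with shGATA2a and at 67.0, 130.4 and 21.7 with shGATA2b. C3 overlapped between the groups, and its difference of -1.78 did not pass without the block (adjusted p = 0.412).

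Of the 30 genes with the largest differences, 15 in each direction, others that were higher with shGATA2b were DNAL4, ALPK3, SOCS1, UGT1A6 and C10orf114, with log2 differences of 1.60, 1.39, 1.34, 1.34 and 1.29. The others that were lower were KRTAP3-1, GPR137C, ACER2, TMOD2, ITGB8, ZNF678 and RGS1, with log2 differences from -2.08 for KRTAP3-1 to -1.55 for RGS1. UGT1A6 shares exons with its gene family, so its reads are uncertain. HMOX1, NOG, PLOD3, DNAL4, SRF, BNIP2, MYH9, MEN1, C10orf114, GZMB, SERPINA6, STT3B, GPR137C, ACER2, TBC1D9, ZNF678, BIRC3 and RGS1 kept their calls without the block.

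IGF2, a growth factor that signals through IGF1R and INSR, has been described as a target of GATA2 in prostate cancer. IGF2 stood at 28.8, 17.0 and 23.3 with shGATA2a and at 35.0, 27.5 and 37.2 with shGATA2b, against 189, 173 and 183 in the controls. All 6 hairpin libraries were far below the controls, and the hairpin groups overlapped. The difference of 0.53 between hairpins did not pass (adjusted p = 0.121), and 8 of its 9 values were not whole numbers of reads. Of 16 members of the axis tested, 0 were higher and 5 lower with shGATA2b, against 4.73% and 7.73% of all genes. IGF2BP3, an RNA-binding protein known to bind IGF2 mRNA, was at 3029, 2761 and 3074 with shGATA2a and at 1544, 1619 and 1472 with shGATA2b, with controls of 2316, 2918 and 2268. It differed by -0.93 (SE 0.10, adjusted p = 1.1e-05) and kept its call without the block.

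PAPPA, a protease that frees IGF from its binding proteins, differed by -0.56 and HMGA2, a chromatin protein, by -0.39. IGF1 differed by -1.24, but its values were low and scattered, at 229, 37.8 and 198 with shGATA2a and 42.7, 38.9 and 76.6 with shGATA2b. Among receptors, INSR differed by -0.37 (adjusted p = 0.0353), a call lost in 13 of 29 settings, and IGF1R had a value of 0.10 that did not pass (0.570). POM121, a nuclear pore protein, was at 668 ± 100.5 with shGATA2a and 697 ± 90.2 with shGATA2b, both below the controls at 1381 ± 44.1. Its difference of 0.06 did not pass (0.801).

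Among GATA factors, GATA6 was lower with shGATA2b, at 66.6, 39.8 and 77.7 with shGATA2a and 28.9, 23.8 and 49.7 with shGATA2b. The groups overlapped, and its difference of -0.84 (adjusted p = 0.0202) was lost without the block (0.421). GATA3 had a value of 0.26 that did not pass (0.647).

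Lists of signalling and surface genes held calls in both directions, to be read against 4.73% higher and 7.73% lower over all genes. In the TGF-beta and BMP list 4 of 24 were higher and 4 lower. TGFBR1, the type I receptor, was at 568, 438 and 851 with shGATA2a and at 244, 281 and 315 with shGATA2b, below its controls of 1296, 1282 and 1323 in both. TGFBR3, the co-receptor betaglycan, differed by -1.03 and had 677 ± 99.8 in the controls, 1405 ± 401 with shGATA2a and 674 ± 132 with shGATA2b. In the Wnt and Notch list 6 of 28 were higher and 4 lower. DKK1, a secreted Wnt antagonist, was at 4648, 4788 and 4784 with shGATA2a and 2538, 2951 and 2974 with shGATA2b, both above the controls of 1831, 1839 and 2186. WNT5A and JAG1, ligands of Wnt and Notch receptors, were higher by 0.77 and 0.58.

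Of 15 integrins 4 were lower and 1 higher, beside 7.73% and 4.73% of all genes. ITGA1 differed by -0.69 and ITGB4, the hemidesmosome subunit, by 0.84. The epithelial list had 5 of 22 higher and 3 lower. CLDN1, a tight junction protein, was at 8690, 5596 and 10498 with shGATA2a and 3483, 2973 and 4358 with shGATA2b, both above controls of 1285, 1281 and 1719. KRT8, a simple epithelial keratin, was higher by 0.68. In the collagen and matrix list 8 of 25 were lower and 2 higher. THBS1, thrombospondin 1, was the larger of the 2 higher, at 3141, 2182 and 3451 with shGATA2a and 6733, 4392 and 7395 with shGATA2b, and COL3A1 was lower with a difference of -0.36. MET, the receptor of hepatocyte growth factor, differed by -0.58. Without the block, NOG, DKK1 and ITGA1 were the members of these lists that passed.

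Few members of the housekeeping lists passed, beside 12.5% of all genes tested. Of 77 cytoplasmic ribosomal proteins 2 were higher and 1 lower, of 73 mitochondrial ribosomal proteins 1 higher, and of 76 nuclear-encoded respiratory chain subunits 1 higher and 2 lower. Their medians were 0.09, 0.07 and 0.05.

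Some genes passed against the control in opposite directions for the 2 hairpins. ZNF483, a zinc-finger gene, was at 213, 275 and 202 with shGATA2a, at 79.7, 84.0 and 71.5 with shGATA2b and at 127, 179 and 132 in the controls. N4BP2 stood at 1037, 771 and 1520, then 379, 399 and 449, with controls of 673, 723 and 820.3. FAM73A stood at 2003, 1135 and 2348 with shGATA2a and 653, 653 and 795 with shGATA2b, with controls at 869, 870.0 and 1022. In all 3 genes the hairpin groups did not overlap and the controls lay mostly between them. Going the other way, ZNF580 and TUBE1, a tubulin gene, were higher with shGATA2b by 1.06 and 0.76. BNIP2 and NOG, the BMP antagonist noggin, were higher by 1.42 and 1.87. Against the control BNIP2 differed by -0.87 with shGATA2a and 0.54 with shGATA2b. NOG was at 262 ± 53.4 in the controls, 143 ± 43.8 with shGATA2a and 508 ± 57.6 with shGATA2b. For each gene, both comparisons use the same 3 controls.

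The same hairpin contrast in the other lines gave fewer calls. It gave 290 of 13362 genes (2.17%) in DU145-DR and 0 of 13757 (0%) in 22Rv1-DR by limma, where 53 genes had an unadjusted p under 0.05. Without the replicate block the DU145-DR count was 0. Of the 1513 ARCaPM-DR calls that were tested in DU145-DR, 1201 had the same sign there, against 60.4% of all genes tested in both lines. In 22Rv1-DR 764 of 1492 had the same sign, against 49.4%. Across 12211 genes the contrasts in ARCaPM-DR and DU145-DR had a Pearson r of 0.309 and a Spearman rho of 0.313, given as a description since genes are not independent replicates. The contrast also went with GC content in both other lines, at a rank correlation of 0.413 in DU145-DR and -0.451 in 22Rv1-DR. Within the middle of 5 equal groups of genes by GC content, the Spearman rho with ARCaPM-DR was 0.237 in DU145-DR (2187 genes) and 0.130 in 22Rv1-DR (2129 genes). Of the ARCaPM-DR calls of at least 2-fold, 90 of 103 had the same sign in DU145-DR and 72 of 101 in 22Rv1-DR. GATA2 had values of 0.24 in DU145-DR (adjusted p = 0.32) and 0.17 in 22Rv1-DR.

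The difference between lines was tested in 1 fit of all 27 libraries with 15295 genes. The hairpin contrast differed between ARCaPM-DR and DU145-DR for 78 genes (0.51%) and between ARCaPM-DR and 22Rv1-DR for 214 (1.4%). Of these, 63 and 194 were in genes that passed the filter on low values in both lines. A gene under that filter in 1 line cannot show its contrast there, and no such difference is given. HMOX1 was among them: its log2 difference was 0.53 in DU145-DR and 0.45 in 22Rv1-DR, smaller than in ARCaPM-DR by 2.32 (adjusted p = 0.00856) and 2.40 (0.00228). SLC7A11 and GCLM had -0.17 and 0.02 in DU145-DR, and their contrasts differed from ARCaPM-DR by 1.12 and 1.0. BACH1 was lower in DU145-DR by a smaller amount (-0.42, adjusted p = 0.0081) and had -0.06 in 22Rv1-DR. STT3B had -0.48 in DU145-DR and -0.22 in 22Rv1-DR. SRF and MEN1 were higher with shGATA2b in DU145-DR as well, by 0.69 and 0.71, and the test of the line difference did not pass there (0.113 and 0.359). Without the replicate block, 0 genes passed in either line comparison.

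**Figure D5:**
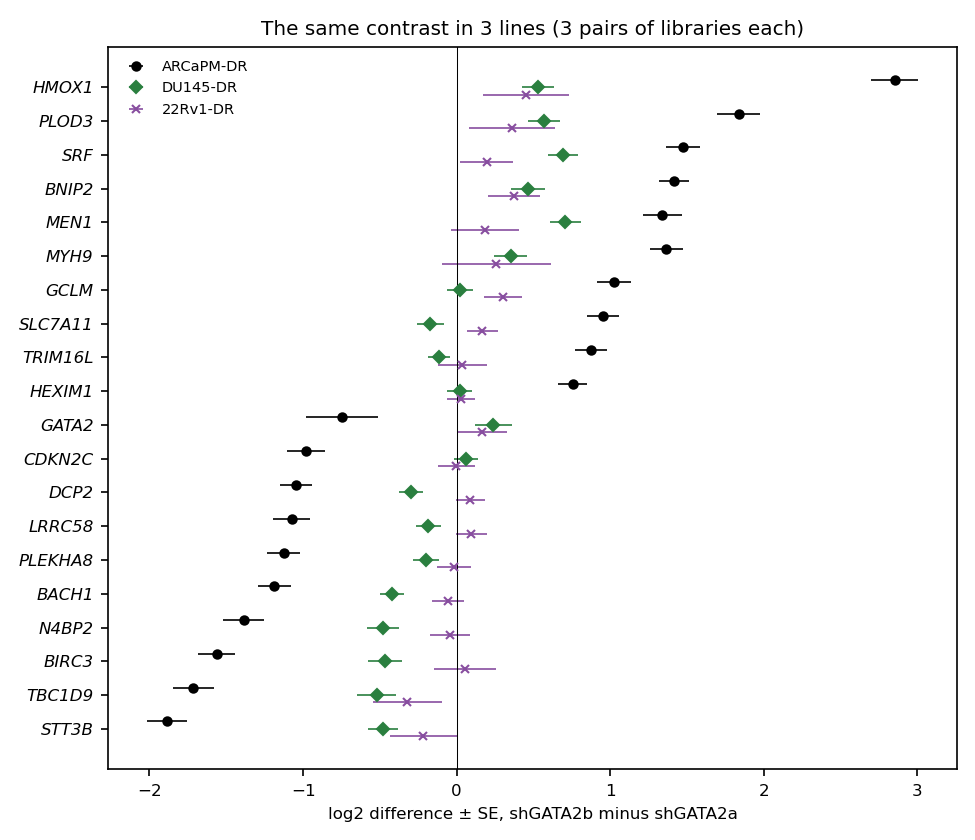
Log2 difference between the hairpins with its SE (x axis) for 20 genes in ARCaPM-DR (circles), DU145-DR (diamonds) and 22Rv1-DR (crosses). HMOX1 is at 2.85 in ARCaPM-DR against 0.53 and 0.45, and STT3B at -1.89 against -0.48 and -0.22.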

How the data were processed

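Transcript levels were measured by RNA sequencing of total RNA in 27 libraries, 3 per group. RNA came from an RNeasy Mini kit and library preparation was Illumina's standard one, per the labels' protocols. The submitters' processing notes name TopHat2 (2.0.9), Cufflinks (1.3.0) and the build hg19 (GRCh37). Not given in the sources used here are the counting program, how values were scaled, and any use of strand, so reads of overlapping or antisense genes cannot be told apart. The authors deposited 1 table of 23228 gene symbols, and its values are a normalised signal. Within each library nearly all deposited signal values were whole multiples of a single step, as read counts divided by a size factor are. Of 433407 values above 0, 99.9541% were whole within 0.005 reads, and 199 values in 58 genes were not. Symbols that a spreadsheet had turned into numbers (26 rows, 3 of them among the calls) are not named.

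Each line was fitted with limma 3.58.1 (R 4.3.3) with a mean-variance trend on log2(value + 1), over genes that reached 10 in 3 or more of its 9 libraries, with replicate number as a block. The contrast was shGATA2b minus shGATA2a, the controls lent only their spread, and p-values were Benjamini-Hochberg adjusted over all genes tested with a threshold of 0.05. Because the values were scaled counts, the fit planned for normalised values was used, and edgeR 4.0.16 and DESeq2 1.42.0 were run on the recovered reads as alternatives (1592 and 1437 genes called, against 1629). The labels do not say what a replicate number marks or whether replicates were separate cultures, so p-values reflect only the spread among these samples, and that spread may be technical. The block was fixed by the rule of the comparison. Deviations from the group mean correlated at 0.172, 0.742 and 0.672 in the same-number hairpin pairs 1, 2 and 3. For number 1 the pairing was weak, since shGATA2a replicate 1 correlated about as much (0.170) with shGATA2b replicate 3. Between hairpin or control groups, libraries of other numbers correlated at -0.755 to 0.310. Replicates differed by more than counting noise (chi-square per degree of freedom 6.36 to 40.4). An exact permutation test of 3 against 3 libraries cannot go below 0.1 and was not used. On simulated data with 200 changed genes per draw (5 draws), the fit recovered 72.6% of genes changed by 0.5 (log2). It recovered 99% of those changed by 1, and 6.84% of calls were false. The simulation gave all 3 replicate numbers an equally strong block and held no GC dependence. Its share of false calls therefore does not carry over to the 1629 calls.

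The comparison, its members and the gene lists were chosen with earlier results of these data known. Named genes were GATA2, IGF2, POM121, FOXM1, GATA3, IGF1R and INSR. To these were added the 15 genes in each direction with the largest difference (mean of at least 50 over the hairpin libraries, same sign in 3 pairs), up to 4 genes per list with the smallest adjusted p, up to 5 genes in each direction that passed against the control on opposite sides, and, for each other line, the 5 genes whose contrast differed from it at the lowest p. No gene qualified as called in all 3 lines. Other genes, list members among them, are examples chosen after their values were seen. Results for some genes that meet these rules are not reported here.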

Additional observations from a re-analysis of the deposited data

Results flagged for a closer look

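The contrast of shGATA2b minus shGATA2a differed between ARCaPM-DR and another line for 43 of the 120 genes whose contrast is given in the text. These genes were partly chosen for large contrasts or for a low p of the line difference, so that share is a description, beside 0.51% of all genes against DU145-DR and 1.4% against 22Rv1-DR. The difference itself was tested (limma, 1 fit of 27 libraries) and passed against DU145-DR for 21 genes, against 22Rv1-DR for 42 and against both for 20. Genes that passed the filter on low values in only 1 of the 2 lines compared are left out. Values are the log2 contrast in ARCaPM-DR minus that in the other line. The call counts over all genes fell to 0 without the replicate block. Groups of 3 libraries are too small for a test of single outlying libraries.

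Among antioxidant and amino acid genes, HMOX1 was larger in ARCaPM-DR by 2.32 against DU145-DR and by 2.40 against 22Rv1-DR. SLC7A11 was larger by 1.12 and 0.78, GCLM by 1.0 and 0.72 and PSAT1 by 0.70 and 0.58. TKT and SLC7A5 passed against 22Rv1-DR, with 0.93 and 1.03. TRIM16L, a TRIM16 paralog whose reads may be shared with it, gave 0.99 and 0.84. HEXIM1, an inhibitor of the elongation factor P-TEFb, gave 0.74 and 0.73, ALPK3 gave 1.67 and 1.61, and DNAL4, a dynein light chain, gave 1.39 and 1.42. Against DU145-DR alone, KRT8 passed with 0.85. Against 22Rv1-DR alone, PLOD3 gave 1.48, SRF 1.28, ZNF580 1.19, MEN1 1.15, THBS1 1.11 and BNIP2 1.04.

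In the other direction, the contrast for BACH1 was more negative in ARCaPM-DR, by -0.77 against DU145-DR and -1.13 against 22Rv1-DR. The cell cycle inhibitor gene CDKN2C gave -1.04 and -0.98, CDK6 -1.03 and -1.27, and IGF2BP3 -0.83 and -1.02. DCP2, the mRNA decapping enzyme, gave -0.75 and -1.14, PLEKHA8 -0.92 and -1.11, LRRC58 -0.89 and -1.17, and N4BP2 -0.91 and -1.34. STT3B gave -1.41 and -1.67, ZNF483 -1.23 and -1.59, SOD2 -0.62 and -0.69, and C3 -1.72 and -1.59. DCP2 stood at 3218, 2745 and 3887 with shGATA2a in ARCaPM-DR and at 1474, 1490 and 1770 with shGATA2b, without overlap.

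Against 22Rv1-DR alone, the mitotic genes CDK1, TOP2A, DLGAP5 and HJURP gave -0.74, -0.74, -0.73 and -0.69, and E2F7 gave -0.85. Among surface and signalling genes, ITGA1 gave -0.67, TGFBR3 -1.11 and BIRC3 -1.62. The others were FAM73A at -1.19, TBC1D9 at -1.39, GPR137C at -1.57, ZNF678 at -1.59, ACER2 at -1.63 and TMOD2 at -1.67.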

How the results depend on the processing

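The count of 1629 genes fell to 105 without the replicate block and to 696 with no trend, and was 3583 with voom sample quality weights and 2451 with the GC dependence removed (a setting added after the data were seen). Leaving out libraries gave 360 to 2182. The GATA2 difference kept its sign in all 28 alternatives run. It no longer passed at -0.748 without the block, with no filter, with no trend or in the 6 hairpin libraries alone, at -0.564 with a pseudocount of 10, -0.730 with quantile normalisation, -0.731 with median of ratios scaling, -0.661 with edgeR, -0.602 with voom, -0.695 with DESeq2, -0.732 with reads thinned to the shallowest library, -0.609 with GC removed and without number 3, and -0.910 to -0.526 over libraries left out, where it passed only without Control replicate 3 (adjusted p = 0.0346). In DU145-DR the count of 290 was 0 without the block, 111 with no filter, 0 with no trend and 0 to 651 over libraries left out, while 22Rv1-DR stayed at 0. The line difference from DU145-DR (78) was 0 without the block, 49 with no trend and 4 to 164 over libraries left out, and that from 22Rv1-DR (214) was 0 without the block and 63 to 772. POM121, at 0.06, ran from -0.129 without replicate 2 to 0.271 without replicate 3, and was below 0 without replicate 2 of either hairpin too. FOXM1, at -0.07, ran from -0.184 without replicate 2 to 0.0071 without replicate 3. Neither gene passed in any setting run. Of 151 named calls, 35 passed without the block, and the cause of these changes was not tested. Depth limits replicate 3 of shGATA2a most, where values under 11.7 are fewer than 3 reads.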

Other observations

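Several differences lay outside the rule for named genes and are given as values, chosen after they were seen. CYP3A4, the drug- and steroid-metabolising cytochrome, was detected at 55.3, 19.9 and 128 with shGATA2a, at 4.62, 1.25 and 6.21 with shGATA2b and at 1.32, 1.75 and 9.60 in the controls. Its log2 difference of -3.57 (SE 0.47, limma adjusted p = 7.2e-05) was larger in size than that of any named gene, and its mean was under the minimum of 50. Among the most abundant transcripts, MMP1, interstitial collagenase, was at 79278, 126303 and 103267 with shGATA2a and at 40350, 76283 and 42502 with shGATA2b, with controls at 37489, 80755 and 39070. CYP24A1, the enzyme that inactivates vitamin D, was at 87628, 95104 and 69469 against 49964, 57725 and 40783. Their log2 differences were -0.99 and -0.77.

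CDK6, a kinase of the G1 phase, was at 10064, 8346 and 11508 with shGATA2a and at 3681, 4312 and 4305 with shGATA2b, with controls at 7915, 7030 and 6578 between them. SLC7A5, a transporter of large neutral amino acids, went the other way, at 8881, 13372 and 6347 with shGATA2a and 19905, 23882 and 14608 with shGATA2b. ADM, adrenomedullin, and VEGFA, the angiogenic factor, both on the hypoxia list, were higher by 1.0 and 0.82. Of 36 members of that list 5 were higher and 5 lower, against 4.73% and 7.73% of all genes. ABCB1, the drug efflux pump, was at 19853, 12168 and 18928 with shGATA2a and 23004, 16056 and 27570 with shGATA2b, a log2 difference of 0.39 with overlapping groups.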
